A study of Mus musculus with 8 samples.

Results

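The genes described here encode the signal, co-receptor, secreted antagonists, DNA-binding partner and processing enzymes of the Nodal pathway in mouse embryonic stem cells (mESCs) and embryoid bodies (EBs). They were Nodal, Gdf3, Tdgf1, Lefty1, Lefty2, Cer1, Foxh1, Pcsk6 and Furin, taken by name from the expression table, 9 genes of 18094. All 9 passed the filter on low values, as did 15767 genes in all. The study replaced lysine 20 of the chromatin architecture protein CTCF with arginine (CTCF-K20R), a residue that can be acetylated, by CRISPR/Cas9 and a donor vector in E14Tg2A mESCs. RNA was sequenced from WT and CTCF-K20R mESCs (day 0) and from EBs of both genotypes on day 4 after differentiation, 8 libraries in all and 2 in each of the 4 groups. The mESCs of both genotypes grew on mitomycin C-inactivated mouse embryo fibroblasts with serum, leukemia inhibitory factor (LIF) and the inhibitors CHIR99021 and PD0325901. The EBs of both genotypes were made in hanging drops of 1000 cells with serum and without LIF, and the labels give no further treatment. The mutant cells came from drug-selected targeted colonies, and the number of colonies behind the libraries is not given in the sources used here, so genotype and the history of the lines cannot be told apart.

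Nodal is a secreted ligand of the TGF-beta family that patterns the early embryo. It is cleaved by proprotein convertases and binds activin receptors together with a co-receptor of the EGF-CFC family, after which phosphorylated SMAD2 or SMAD3 joins SMAD4 and partners such as FOXH1 on target genes. The pathway switches on its own ligand and its own secreted inhibitors of the Lefty family, and high Nodal activity is known for directing the epiblast to the primitive streak, mesoderm and endoderm.

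The libraries held between 19412659 and 21311513 normalized read counts, which are the authors' counts adjusted for sequencing depth. In these units 3 reads corresponded to between 2.43 and 3.43 normalized counts. The WT libraries of each day differed by less than sampling noise, with a mean squared difference of 0.314 times that noise on day 0 and 0.278 times on day 4, against 4.00 and 4.36 times for the CTCF-K20R pairs. Each WT pair was therefore averaged and counted as 1 sample beside 2 CTCF-K20R samples, and the WT samples are assumed to vary as the mutant samples did. The study describes its libraries as biological replicates from independent experiments. Since the WT pairs lay closer than reads drawn independently would, p-values are taken here to measure the spread between these libraries, which may be technical. Genes that differed over 2-fold with an adjusted p under 0.05 (limma, Benjamini-Hochberg over all tested genes) were counted as differentially expressed genes (DEGs). Over all genes, 44.4% of the DEGs on day 4 and 31.4% of those on day 0 were upregulated in CTCF-K20R, and quantile normalization moved these shares to 53.7% and 41.9%. The labelled cell states were checked on marker genes: the 6 pluripotency markers summed to between 90125 and 91438 normalized counts in all mESC libraries, and the 6 primitive streak and mesoderm markers to between 37886 and 38029 in WT EBs.

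On day 4, Nodal, Lefty1 and Gdf3 were upregulated in CTCF-K20R EBs, whereas Tdgf1, Cer1 and Foxh1 were downregulated and Lefty2, Pcsk6 and Furin were not DEGs. The 3 upregulated members compare with 6.89% of all tested genes upregulated, and the 3 downregulated members with 8.65% downregulated. Both CTCF-K20R libraries lay outside the WT range for all 9 members, higher for 4 and lower for 5. This was a common property on day 4, where the libraries of 85% of all tested genes did not overlap between genotypes. The median log2 fold change of the members was -0.38, beside 0.01 for all tested genes. In mESCs no member was a DEG by limma, while 1.19% of all tested genes were upregulated and 2.6% downregulated. At any fold, 3 members had an adjusted p under 0.05 there, compared with 15.4% of all tested genes. A fit of all 8 libraries as separate samples called 1 member in mESCs (Cer1, under the limit of 3 reads in every mESC library).

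**Figure D1:**
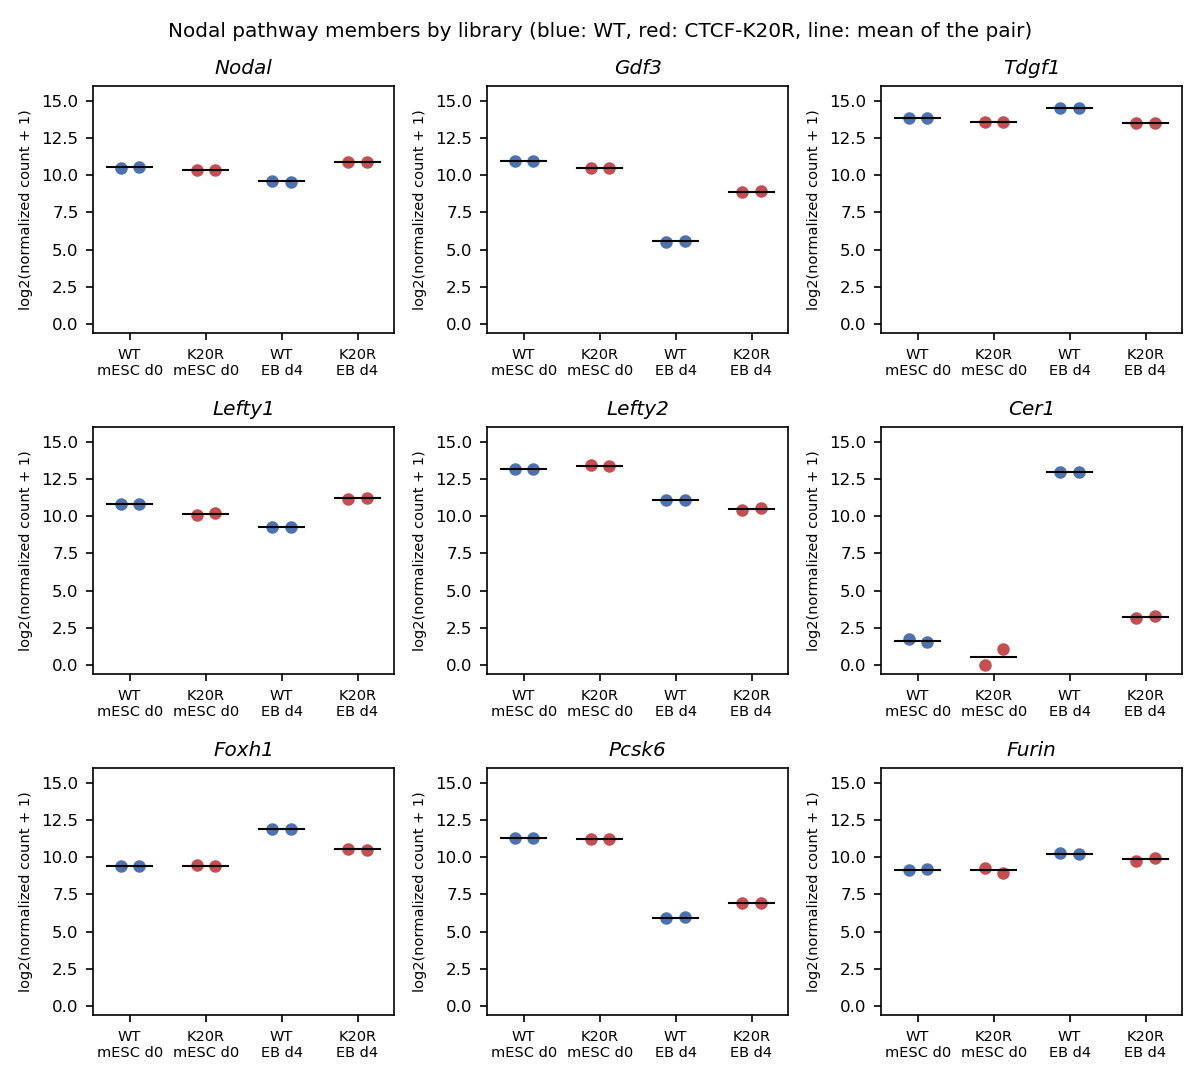
Each panel plots 1 gene, with log2(normalized count + 1) on the vertical axis and the 4 groups on the horizontal axis (d0, day 0; d4, day 4); each point is 1 library, blue for WT and red for CTCF-K20R, and the black line is the mean of the pair. Cer1 stands at 7907 and 7871 normalized counts in the WT EBs and below 10 in every other library, while Nodal and Lefty1 are highest in the CTCF-K20R EBs.

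Nodal itself (chr10:61417972-61425338, plus strand, GRCm38) had 1464 and 1481 normalized counts in the WT mESCs and 1293 and 1291 in the CTCF-K20R mESCs. Its EB values were 777 and 757 normalized counts in WT and 1899 and 1942 in CTCF-K20R. The WT libraries thus held less Nodal RNA on day 4 than on day 0, the CTCF-K20R libraries held more, and no 2 groups overlapped. Nodal was upregulated 2.50-fold in CTCF-K20R EBs (log2 fold change 1.32, SE 0.0595, adjusted p = 0.000102, limma with Benjamini-Hochberg adjustment). In mESCs its log2 fold change was -0.19, with a 95% interval from -0.34 to -0.04 and an adjusted p of 0.0943. The genotype change differed between the days by 1.51 on the log2 scale (adjusted p = 0.000421). As in all bulk samples, more cells that express a gene and more RNA per cell cannot be told apart.

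Gdf3 (chr6:122605403-122610087, minus strand), a ligand of the same family that can use the Nodal receptors and co-receptor and that stem cells express, had the largest upward change among the members. Its values in mESCs were 2015 and 2023 normalized counts in WT and 1444 and 1420 in CTCF-K20R. In EBs they were 45.3 and 48.0 in WT and 467 and 482 in CTCF-K20R. Gdf3 was therefore low in WT EBs and intermediate in CTCF-K20R EBs, while the mESC libraries of both genotypes were high. It was upregulated 9.98-fold on day 4 (log2 fold change 3.32, SE 0.088, adjusted p = 2.76e-05). On day 0 it was lower in both CTCF-K20R libraries (log2 -0.50, adjusted p = 0.0211), short of the fold threshold, and the change differed between the days by 3.81 (adjusted p = 0.000108).

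The co-receptor gene Tdgf1 (chr9:110939603-110946158, minus strand), whose product Cripto tethers Nodal and GDF3 to the activin receptors, was the most abundant member per kilobase of transcript in all 4 groups. It had 14909 and 14939 normalized counts in WT mESCs and 12442 and 12463 in CTCF-K20R mESCs. The EBs held 23707 and 23669 in WT and 11856 and 11495 in CTCF-K20R. Tdgf1 was higher in WT EBs than in any other group, and the CTCF-K20R EBs stayed near the level of their own mESCs. It was downregulated 2.03-fold on day 4 (log2 -1.02, SE 0.0326, adjusted p = 4.17e-05), just past the fold threshold, and without the CTCF-K20R EB library of replicate 2 the value was -0.998 and no longer a call. The day 0 difference was -0.26 (adjusted p = 0.00787), and the change between days, -0.76 (adjusted p = 0.000526), was short of the fold threshold. Of its 31-base words, 17.35% also occur in the pseudogene Tdgf1-ps1, which was not analysed here.

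Lefty1 (chr1:180935022-180938400, plus strand) and Lefty2 (chr1:180893108-180899103, plus strand) encode secreted inhibitors that bind Nodal and its co-receptor and are themselves Nodal targets. The genes lie near each other on chromosome 1 and their coding sequences, 1104 bases each in 4 exons, differ at 90 bases (91.85% identical). Since reads from identical stretches must be divided between them by the quantification, a stretch where they can be told apart is shown, namely coding bases 46 to 165 in exon 1 (GRCm38, plus strand, GENCODE), with the 34 differing bases in capitals:
Lefty1, chr1:180935155-180935274: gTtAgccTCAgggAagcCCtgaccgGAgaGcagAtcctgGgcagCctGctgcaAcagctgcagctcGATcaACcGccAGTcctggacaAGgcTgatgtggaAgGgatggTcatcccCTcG
Lefty2, chr1:180893229-180893348: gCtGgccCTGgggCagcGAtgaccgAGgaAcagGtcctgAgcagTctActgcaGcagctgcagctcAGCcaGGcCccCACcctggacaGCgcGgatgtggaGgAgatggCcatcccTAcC
Elsewhere the pair share up to 140 identical bases in a row, and 37.06% of the windows of 31 coding bases hold no difference. Over the whole transcripts, 25.03% of the 31-base words of Lefty1 and 17.36% of those of Lefty2 occur in another gene, so each also has sequence of its own.

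Lefty1 had 1803 and 1811 normalized counts in WT mESCs and 1102 and 1201 in CTCF-K20R mESCs. The EB libraries held 634 and 617 in WT and 2333 and 2433 in CTCF-K20R. The order of the genotypes was thus opposite on the 2 days, with no overlap on either. Lefty1 was upregulated 3.81-fold on day 4 (log2 1.93, SE 0.0768, adjusted p = 7.44e-05). On day 0 the log2 fold change was -0.65 (adjusted p = 0.00669), short of the fold threshold, and the difference between days was 2.58 (adjusted p = 0.0002).

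Lefty2 had the other pattern. It had 9456 and 9424 normalized counts in WT mESCs and 10915 and 10650 in CTCF-K20R mESCs. In EBs it had 2184 and 2190 in WT and 1401 and 1481 in CTCF-K20R. Lefty2 was thus lowest in the CTCF-K20R EBs, where Lefty1 was highest. The log2 fold change on day 4 was -0.60 (95% interval from -0.73 to -0.47, adjusted p = 0.000651), short of the fold threshold, and on day 0 it was 0.19 (adjusted p = 0.0613).

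The share of Lefty1 in the summed level of the pair, per kilobase of transcript, was 22.6% and 22.7% for WT mESCs, 13.4% and 14.7% for CTCF-K20R mESCs, 30.7% and 30.1% in WT EBs, and 71.8% and 71.5% in CTCF-K20R EBs. Lefty1 was the lesser of the pair in 3 groups and the greater in the mutant EBs. When both genes were summed before the fit, the pair had 2817 and 2807 normalized counts for WT EBs and 3734 and 3915 in CTCF-K20R EBs. That change, 0.44 on the log2 scale (adjusted p = 0.00105), is short of the fold threshold. The summed value on day 0 was 0.086 (adjusted p = 0.244).

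Cer1 (chr4:82881751-82885148, minus strand) encodes Cerberus-like, a secreted inhibitor of Nodal, BMP and WNT ligands made by the anterior visceral endoderm and by early endoderm and mesoderm. It showed the largest difference of the set. In mESCs all 4 libraries were at or under the limit of 3 reads, with 2.3 and 1.9 normalized counts in WT and 0 and 1.1 in CTCF-K20R. In EBs it had 7907 and 7871 normalized counts in WT and 8.0 and 8.8 in CTCF-K20R. The WT EBs held nearly all of the Cer1 RNA of the series, and the mutant EBs were a few normalized counts above the limit. Cer1 was downregulated 842-fold on day 4 on the log2(value + 1) scale (log2 -9.72, SE 0.593, adjusted p = 0.000231). The difference between the days was -8.63 (adjusted p = 0.00197), and with a pseudocount of 0.1 in place of 1 it was -7.21 with an adjusted p of 0.0633. No fold is given for mESCs, where both genotypes were at or under the limit.

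Most markers of the anterior visceral endoderm, definitive endoderm and primitive streak lists were lower together with Cer1, whereas no visceral endoderm marker was downregulated. The 4 markers of the anterior visceral endoderm besides the members (Hhex, Dkk1, Otx2 and Lhx1) summed to between 21212 and 21391 normalized counts in WT EBs and between 3504 and 3527 in CTCF-K20R EBs, and 3 of the 4 were downregulated. Most of the WT sum was Lhx1, at 15499 and 15710. Most of the CTCF-K20R sum was Otx2, at 3402 and 3436, which was not a DEG. The 4 definitive endoderm markers summed to between 7183 and 7246 in WT EBs and 136 and 138 in CTCF-K20R EBs, with 4 of 4 downregulated. The 6 primitive streak and mesoderm markers, all 6 downregulated, summed to between 2359 and 2464 in CTCF-K20R EBs. Of 6 visceral endoderm markers, 3 passed the filter, Amn being upregulated, and Afp and Ttr were at 0 to 0.8 normalized counts in WT EBs and at 2.2 to 5.7 in CTCF-K20R EBs. Markers of the fibroblast feeders summed to between 584 and 602 in WT EBs and 769 and 851 in CTCF-K20R EBs (2 of 6 upregulated and 1 downregulated). Most of the mutant sum was Thy1, at 579.8 and 525.5 against 225.8 and 221.6 in WT. Col3a1 and Pdgfrb were also higher in both mutant libraries, while Col1a1, Col1a2 and Postn were lower. The 3 neural ectoderm markers summed to between 1901 and 1935 against 2645 and 2677, with 2 upregulated. Most of these sums was Nes, which was short of the fold threshold (log2 0.41, adjusted p = 0.00532). The part of these cell types in the change of Cer1 and the other members was not tested.

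Since Cer1 was switched on in the WT EBs, the 250 bases before its RefSeq start are shown (chr4:82885152-82885401, GRCm38.p6, minus strand, 5′ to 3′), with the motif TAATTA of LHX-type homeodomain factors in capitals:
Cer1: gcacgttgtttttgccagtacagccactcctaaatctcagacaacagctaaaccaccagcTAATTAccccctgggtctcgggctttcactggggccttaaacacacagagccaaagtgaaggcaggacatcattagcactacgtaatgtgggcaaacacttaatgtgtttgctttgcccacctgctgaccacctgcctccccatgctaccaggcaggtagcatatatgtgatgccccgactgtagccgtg
The match, a description of the letters and not a tested site, begins 190 bases before the start. All motifs were sought only in the 250 bases before each start. TAATTA occurred in 4.84% of all 32851 RefSeq promoters on either strand, and among the members it occurred in Cer1 and Tdgf1. Matched promoters were found for 5 of the 9 members (Cer1, Pcsk6, Furin, Tdgf1 and Nodal). None of them held the letters AATCCACA of FOXH1 (in 0.72% of all promoters), the SMAD palindrome GTCTAGAC (0.17%), the T-box letters AGGTGTGA (1.12%), TAATCC of OTX and GSC factors (6.25%; its last 5 letters are the first 5 of the FOXH1 motif) or CTTTGAT of TCF and LEF factors (3.21%), on either strand.

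**Figure D2:**
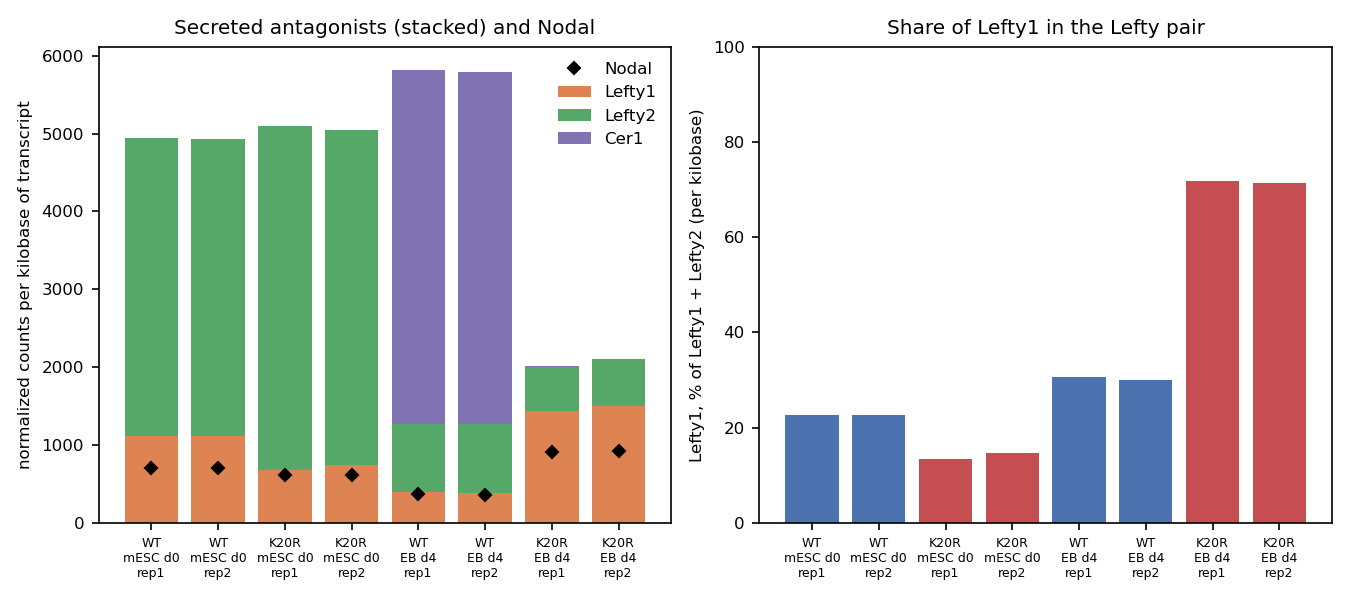
The left plot stacks Lefty1, Lefty2 and Cer1 in normalized counts per kilobase of transcript for each library, with Nodal on the same scale as black diamonds, and the right plot gives Lefty1 as a percentage of Lefty1 and Lefty2 in each library (blue, WT; red, CTCF-K20R). Cer1 fills most of the WT EB columns and is too low to be seen in the CTCF-K20R EBs, where Lefty1 makes up 71.8% and 71.5% of the Lefty pair.

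Per kilobase, the 3 antagonists together stood at 7.07 and 6.98 times Nodal in WT mESCs and 8.25 and 8.19 times in CTCF-K20R mESCs. In EBs they stood at 15.7 and 16.03 times Nodal in WT and at 2.22 and 2.27 times in CTCF-K20R. Without Cer1 the ratio was 3.44 and 3.51 in WT EBs and 2.21 and 2.27 in CTCF-K20R EBs, with a smaller gap between genotypes. Nodal, the divisor, differed as well, at 366 normalized counts per kilobase in WT EBs and 917 in CTCF-K20R EBs. The co-receptor stood at 33.1 and 33.9 times Nodal in WT EBs and 6.77 and 6.42 times in CTCF-K20R EBs, against 10.4 to 11.0 times in the mESC libraries. These ratios are of RNA levels in bulk cells and are given as descriptions.

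Foxh1 (chr15:76668225-76669948, minus strand), the forkhead factor that brings activated SMAD complexes to Nodal target genes, had overlapping values in mESCs of both genotypes. It had 691 and 682 normalized counts in WT mESCs and 708 and 666 in CTCF-K20R mESCs. On day 4 it had 3858 and 3833 in WT and 1513 and 1470 in CTCF-K20R. Foxh1 was downregulated 2.58-fold on day 4 (log2 -1.37, SE 0.0717, adjusted p = 0.000152), while the log2 fold change on day 0 was 0.00 with a 95% interval from -0.18 to 0.18. The change differed between days by -1.37 (adjusted p = 0.00093).

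Of the convertases that cleave the Nodal precursor, Pcsk6 (PACE4; chr7:65861734-66050386, plus strand) had 2496 and 2554 normalized counts in WT mESCs and 2351 and 2390 in CTCF-K20R mESCs. On day 4 the values were 59.4 and 61.2 in WT and 120 and 118 in CTCF-K20R. Both EB groups were far below the mESCs, and the mutant EBs were above the WT EBs. The log2 fold change on day 4 was 0.97 (95% interval from 0.73 to 1.21, adjusted p = 0.0011), just short of the fold threshold, and quantile normalization gave 1.21 (adjusted p = 0.000405). The change differed between days by 1.06 (adjusted p = 0.00475). Pcsk6 overlaps the gene Gm45213 on its own strand and Gm20684 on the other, the latter at 0 to 21.7 normalized counts in every library.

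Furin (chr7:80388585-80405436, minus strand), the broadly expressed convertase, had 569 and 581 normalized counts in WT mESCs and 631 and 501 in CTCF-K20R mESCs. In EBs it had 1232 and 1208 in WT and 875 and 1005 in CTCF-K20R. The mutant libraries were spread around the WT values on day 0 and were both lower on day 4. Neither difference passed the test, with log2 fold changes of -0.03 on day 0 (95% interval from -0.44 to 0.37) and -0.38 on day 4 (from -0.78 to 0.03, adjusted p = 0.118).

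In mESCs, 3 of the 9 members (Lefty1, Tdgf1 and Gdf3, all lower in CTCF-K20R) had an adjusted p under 0.05 at any fold, compared with 15.4% of all tested genes. These adjusted p-values used a spread shared with the EB libraries. In a fit of the mESC libraries alone they did not stay under 0.05. The libraries of 7 members did not overlap on day 0, 1 higher and 6 lower in CTCF-K20R, compared with 77.9% of all tested genes. The genotype change differed between the days for 6 members by the same thresholds, upward for Nodal, Lefty1, Gdf3 and Pcsk6 (6.84% of all tested genes) and downward for Cer1 and Foxh1 (6.04%).

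**Figure D3:**
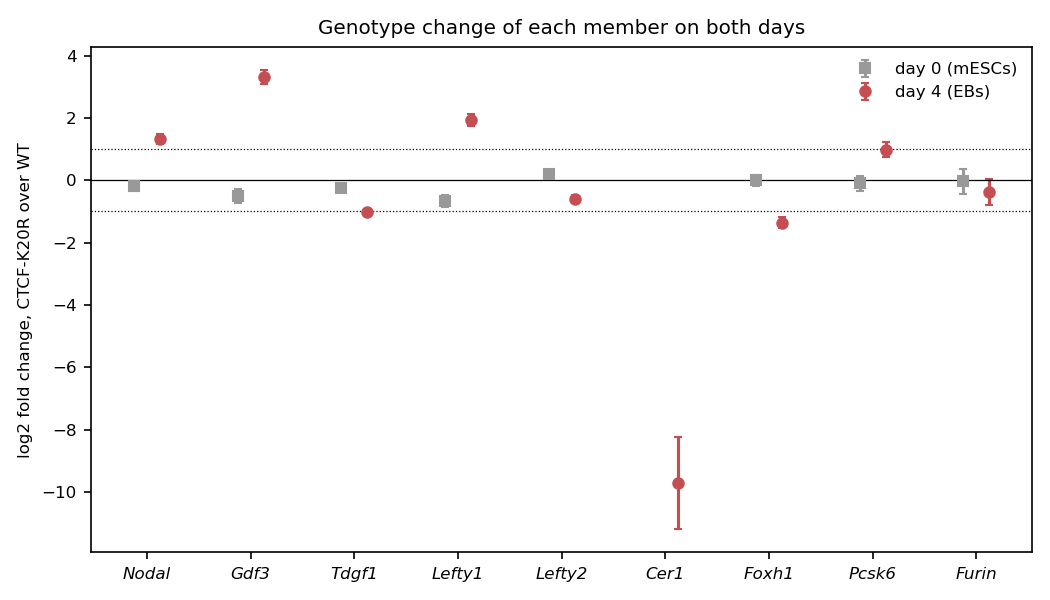
The log2 fold change of CTCF-K20R over WT is plotted for each member on day 0 (grey squares) and day 4 (red circles), with bars for the 95% interval and dotted lines at the fold threshold; Cer1 has no day 0 point because all mESC libraries were at or under the limit of 3 reads. The day 0 values of the other members lie between -0.65 and 0.19, while the day 4 values run from -9.72 for Cer1 to 3.32 for Gdf3.

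The course of differentiation was then set side by side for the genotypes. In WT cells, where 1 sample stands against 1 and no p is given, 3 members were over 2-fold higher on day 4 than on day 0, namely Cer1 (3790-fold), Foxh1 (5.60-fold) and Furin (2.12-fold), compared with 18.9% of all tested genes. The ratio of Cer1 rests on about 2 reads in a WT mESC library, and its exact 95% interval, for counting error only, runs from 965 to 28800. In WT cells 4 members were over 2-fold lower, namely Gdf3 (42.4-fold), Pcsk6 (41.2-fold), Lefty2 (4.32-fold) and Lefty1 (2.89-fold), compared with 16.3%. In CTCF-K20R cells Lefty1 rose 2.07-fold (adjusted p = 8.36e-05), Foxh1 rose 2.17-fold (adjusted p = 5.3e-05) and Cer1 rose (adjusted p = 0.00513), compared with 14.5% of all tested genes upregulated. The ratio of Cer1, from 1 read in both mESC libraries to 15 in both EB libraries, was 15.2 with a counting interval from 2.37 to 647. Lefty2 fell 7.48-fold (adjusted p = 1.62e-06), Pcsk6 fell 19.7-fold (adjusted p = 2.92e-06) and Gdf3 fell 3.01-fold (adjusted p = 3.19e-05), compared with 11.6% downregulated. The rise of Lefty1 was 0.987 on the log2 scale without the CTCF-K20R mESC library of replicate 1, short of the threshold, and without either CTCF-K20R EB library Cer1 no longer passed the test, with log2 values of 2.64 and 2.75 and adjusted p of 0.0586 and 0.0544. The other members of the mutant stayed under the fold threshold, with log2 changes of 0.57 for Nodal, 0.74 for Furin and -0.09 for Tdgf1.

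On the path of WT cells from day 0 to day 4, the level in CTCF-K20R EBs lay between the WT days for 5 members. The mutant EBs had covered 14.2% of the WT change on the log2 scale for Cer1, 38.6% for Gdf3, 45.0% for Foxh1, 65.0% for Furin and 81.9% for Pcsk6. The other 4 members were outside the span of the WT days, Nodal and Lefty1 above both and Lefty2 and Tdgf1 below both. Over all tested genes, 44.4% lay outside that span.

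Per kilobase of the longest coding transcript, the order of levels in WT mESCs was Tdgf1 (7725 normalized counts per kilobase), Lefty2 (3817), Lefty1 (1115), Gdf3 (950), Nodal (703), Pcsk6 (573), Foxh1 (503), Furin (133) and Cer1 (1.197). The CTCF-K20R mESCs had the same order. In WT EBs Cer1 (4537) and Foxh1 (2817) followed Tdgf1 (12260), and Lefty2 (884), Lefty1 (386), Nodal (366), Furin (282), Gdf3 (22.0) and Pcsk6 (13.7) came after. In CTCF-K20R EBs the order was Tdgf1 (6043), Lefty1 (1471), Foxh1 (1093), Nodal (917), Lefty2 (583), Gdf3 (223), Furin (217), Pcsk6 (27.1) and Cer1 (4.82). Neighbours in these orders did not overlap between libraries, other than Gdf3 and Furin in the CTCF-K20R EBs.

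The rest of the pathway was described from a list of 37 genes by role, of which 35 were tested. On day 4, 3 were upregulated and 13 downregulated in CTCF-K20R EBs, compared with 6.89% and 8.65% of all tested genes. An adjusted p under 0.05 at any fold was found for 25, compared with 40.1% of all tested genes, and the median log2 fold change was -0.60 beside 0.01 for all tested genes. The 10 target genes of Nodal in the streak, node and endoderm were all over 2-fold higher in WT EBs than in WT mESCs. Of all tested genes 18.9% were, and the median log2 change of the targets in WT was 7.67. From CTCF-K20R mESCs to EBs, 8 of the 10 were upregulated and 1 downregulated, compared with 14.5% and 11.6% of all tested genes. The median log2 change of the targets in CTCF-K20R was 2.42. Against WT EBs, 8 of the 10 were downregulated in CTCF-K20R EBs, with a median log2 fold change of -5.11.

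Among these targets, the T-box gene Eomes, which drives mesoderm and endoderm formation, had 9931 and 9866 normalized counts for WT EBs and 1845 and 1777 in CTCF-K20R EBs (log2 -2.45, adjusted p = 3.01e-05). The node and prechordal gene Gsc had 932 and 936 in WT and 20.5 and 24.5 in CTCF-K20R (log2 -5.32, adjusted p = 0.000449). Lhx1, a homeodomain factor of the anterior mesendoderm, had 15499 and 15710 in WT and 6.7 and 6.8 in CTCF-K20R (log2 -10.98, adjusted p = 9.65e-05). Each of these genes had a level in the WT EBs that no mutant library reached. Eomes was already present in mESCs, at 317 and 315 in WT and 457 and 443 in CTCF-K20R. It also rose from day 0 to day 4 in CTCF-K20R (log2 2.01, adjusted p = 7.61e-06). Mixl1 (log2 -6.27), T (-5.33), Sox17 (-7.30), Foxa2 (-4.91) and Hhex (-3.12) were downregulated as well. Otx2, a homeodomain factor of the epiblast and anterior tissues, was not a DEG, with a log2 fold change of -0.12 (adjusted p = 0.161).

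Of the receptors, Acvr1b, Acvr2a and Acvr2b were not DEGs, with log2 fold changes of -0.49, -0.65 and -0.10. Acvr1b and Acvr2a had adjusted p of 0.0027 and 0.00756 and were short of the fold threshold, while Acvr2b did not pass the test (0.553). The second EGF-CFC co-receptor gene, Cfc1 (Cryptic), had 865 and 866 normalized counts for WT EBs and 8.0 and 9.8 in CTCF-K20R EBs, and was downregulated (log2 -6.46, adjusted p = 0.00115). Both co-receptor genes were thus lower in the mutant EBs. The transducers Smad2, Smad3 and Smad4 were not DEGs, with log2 fold changes of -0.56, -0.67 and 0.22. Their adjusted p was 0.0308, 0.0381 and 0.0236, so they missed only the fold threshold.

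Among 10 other inhibitors and feedback genes, Smad7, the inhibitory SMAD, had 535 and 524 normalized counts for WT EBs and 1207 and 1324 in CTCF-K20R EBs and was upregulated (log2 1.25, adjusted p = 0.000228). Dact2, which promotes turnover of Nodal receptors, had 152 and 150 in WT and 420 and 426 in CTCF-K20R (log2 1.48, adjusted p = 0.00209). On day 0 Dact2 was downregulated in CTCF-K20R (log2 -1.50, adjusted p = 0.00657), with 1012 and 1007 in WT mESCs and 313 and 407 in CTCF-K20R mESCs. The activin-binding protein gene Fst was downregulated on day 4 (log2 -2.10), from 6664 and 6691 in WT to 1597 and 1525 in CTCF-K20R. The remaining 7, with log2 fold changes from -0.80 for Dand5 to 0.81 for Skil, were not DEGs. Of these, Skil, Ski and Tgif1 were higher in CTCF-K20R and missed only the fold threshold (adjusted p = 0.000157, 0.000616 and 0.00317).

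Of the other convertases, Pcsk5 had 173 and 169 normalized counts for WT EBs and 2.1 and 9.1 in CTCF-K20R EBs and was downregulated (log2 -4.94, adjusted p = 0.014), while Pcsk7 had a log2 fold change of -0.14. The related ligand genes Gdf1 and Inhbb were at 79.7 normalized counts or fewer in every library and were not DEGs. Among the inputs that maintain Nodal in the epiblast, Wnt3 (log2 -2.08) and Bmp4 (-2.54) were downregulated and Nanog (1.66) was upregulated. Pou5f1 (0.78, adjusted p = 0.00011) was short of the fold threshold and not a DEG. In mESCs, 1 gene of the list was upregulated (Gsc, log2 2.34) and 2 were downregulated (T and Dact2). Of all tested genes, 1.19% were upregulated and 2.6% downregulated in mESCs. Gsc was low there, at 5.8 and 4.8 normalized counts in WT and 38.7 and 24.8 in CTCF-K20R. Of the 6 pluripotency markers, 4 were upregulated with Nodal, Lefty1 and Gdf3 and Klf4 was downregulated, and the list summed to between 15404 and 15511 normalized counts in the WT EBs and 31200 and 31927 in CTCF-K20R EBs. Of the 4 epiblast markers, Pou3f1 and Dnmt3b were upregulated, while Fgf5 (log2 -0.21) and Otx2 (-0.12) were not DEGs and were lower in both mutant libraries. The epiblast list summed to between 22339 and 22351 against 46396 and 47846, and most of that difference was Dnmt3b, a DNA methyltransferase gene, at 14624 and 14620 in WT and 36756 and 38180 in CTCF-K20R. Their part in the changes of Nodal, Lefty1 and Gdf3 was not tested.

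**Figure D4:**
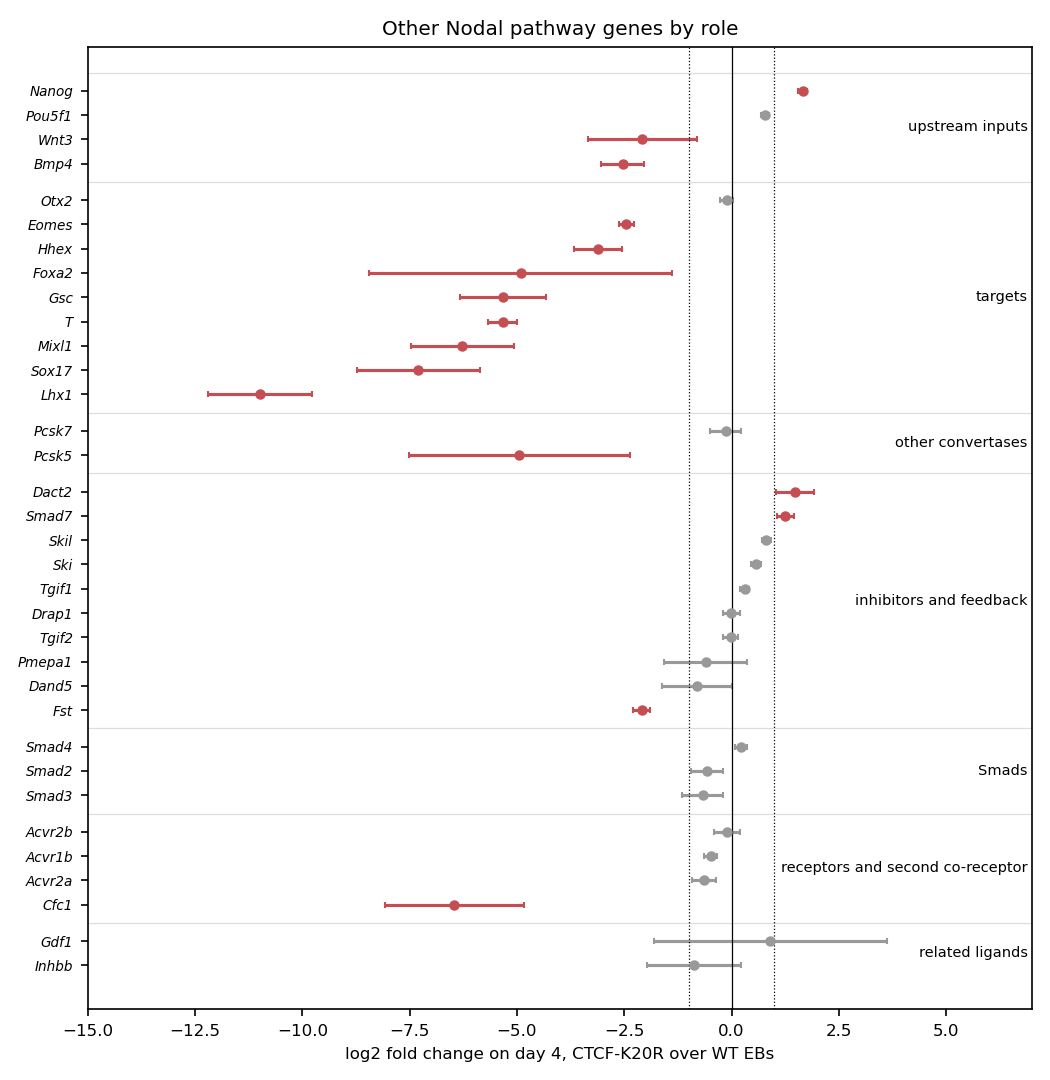
Each point is the log2 fold change on day 4, CTCF-K20R over WT EBs, of 1 tested pathway gene outside the main set, grouped by role, with its 95% interval, in red for DEGs and grey for the rest; dotted lines mark the fold threshold. The 8 downregulated targets run from -2.45 for Eomes to -10.98 for Lhx1, while receptors and SMADs other than Cfc1 lie between -0.67 and 0.22.

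Of the genes next to the members on the chromosome, 17 tested protein-coding neighbours in all, 2 were upregulated and 1 downregulated on day 4, compared with 6.89% and 8.65% of all tested genes. The upregulated neighbours were both next to Gdf3: Apobec1, 3.0 kb away (log2 3.31, adjusted p = 0.00409), from 3.9 and 6.6 normalized counts in WT EBs to 84.1 and 44.2 in the mutant, and Nanog, 97.4 kb away (log2 1.66). The downregulated neighbour was Frem1, 12.8 kb from Cer1, with 345 and 354 in WT EBs and 39.6 and 55 in CTCF-K20R EBs (log2 -2.88, adjusted p = 0.00381). Frem1 was also the 1 neighbour that was a DEG in mESCs (log2 -2.61, adjusted p = 0.0151), where Cer1 was not detected above the limit. The neighbours Kifc2 and Ppp1r16a of Foxh1 had -0.74 and -0.73. Kifc2 ends 29 bases from Foxh1, and the use of strand in the counting is not given in the sources used here.

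Genes with the profile most like a member were found by the root mean square difference of centred log2 values over the 6 samples of the fit, for the 5 members whose group means spanned at least 2 on the log2 scale. Among the genes closest to Gdf3 were A2m (0.27) and the pluripotency gene Sox2 (0.35). Pcsk6 was closest to the pluripotency gene Zfp42 (0.17), 1700029P11Rik (0.20) and Pecam1 (0.22). Foxh1 was closest to Parm1 (0.054), Sh3pxd2b (0.12) and Col2a1 (0.12), and Lefty2 to Gss (0.12), Fam131c (0.13) and Slc17a9 (0.14). Cer1 was farthest from its nearest genes, the apelin receptor gene Aplnr (0.72), Pcdh7 (0.86) and Samd3 (0.88), all at 0 in the mean of both mESC groups and at 1195 to 7231 normalized counts in WT EBs.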

How the data were processed

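The RNA-seq data comprise mESCs and day 4 EBs of both genotypes, 2 libraries per group. The authors trimmed reads with Trim Galore, quantified them with salmon on mm10, collapsed them to genes with tximport and normalized them with DESeq2. The deposited table gives their normalized counts, a signal value for every gene in every library. The test covered genes averaging 10 or more normalized counts across all 8 libraries. It used limma 3.58.1 (R 4.3.3) on values logged to base 2 after adding 1 (lmFit, eBayes with a mean-variance trend, 4 group means, Benjamini-Hochberg adjustment over 15767 genes). With each WT pair averaged, 6 samples entered the fit (2 residual and 3.51 prior degrees of freedom). WT pairs were averaged because their squared differences were smaller than reads drawn independently would give. The change of WT cells over time has no p-value. The limit of detection was set at 3 reads, from the step of 1 read at low values, and ratios over a group with 1 or 2 reads have exact binomial (Clopper-Pearson) intervals that cover counting error only.

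Members and gene lists were chosen with earlier results of these data known. Named from the lists were the DEGs of day 4 and, of the others, those a sentence on a role needed. The 3 genes most like a member were taken among genes averaging 100 or more normalized counts. A few genes that these rules name are not reported here. Positions, transcript lengths and coding sequences came from GENCODE (GRCm38), promoters from RefSeq, and the strand and annotation used in counting are not given in the sources used here. Alternatives were other pseudocounts (0.1 and 5), no filter, quantile normalization, all 8 libraries as separate samples, a replicate block, the libraries of a contrast alone, each library left out and Lefty1 summed with Lefty2. The fit was tested on simulated data with changes well past the fold threshold in genes far above the limit of detection. That test does not cover calls near the threshold or values near the limit. It drew WT with the spread of the mutant samples, so it cannot test that assumption. Python 3.11.15 with pandas 2.3.3 and matplotlib 3.10.9 did the rest.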

Additional observations from a re-analysis of the deposited data

Results flagged for a closer look

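For 6 of the 9 members the genotype change itself differed between day 0 and day 4, by a contrast of both changes in the same limma fit (over 2-fold and adjusted p under 0.05, Benjamini-Hochberg). Of all tested genes, 6.84% differed upward and 6.04% downward by the same thresholds. Gdf3 differed most upward, by 3.81 on the log2 scale, from -0.50 in mESCs to 3.32 in EBs. Lefty1 differed by 2.58, from -0.65 to 1.93, and Nodal by 1.51, from -0.19 to 1.32. Pcsk6 differed by 1.06, from -0.09 to 0.97. Cer1 differed by -8.63, with both genotypes at or under the limit of 3 reads in mESCs. Foxh1 differed by -1.37, from 0.00 to -1.37.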

How the results depend on the processing

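Of 148 recomputed counts of members and pathway genes called, 145 were within 1.5 times the reported count. Leaving out 1 WT library kept 1 WT sample on each day, so those counts could move little. Some counts within the limit still changed. Pathway genes downregulated on day 4 went from 13 to 11 with no filter, and also fell without either CTCF-K20R EB library. With all 8 libraries as separate samples, and also with the replicate block, 1 member in place of 0 was called lower on day 0, namely Cer1 (adjusted p = 0.0352 and 0.0414 with the block), which was at or under the limit in every mESC library. With a pseudocount of 0.1, 1 member in place of 2 had a downward day difference, Cer1 being lost. The numbers of the libraries showed no pairing (correlation of deviations -0.04 between the CTCF-K20R groups), and the block changed no other call of a member. Over all genes, 188 up and 410 down on day 0 became 445 and 903 with 8 separate libraries.

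With Lefty1 and Lefty2 summed, the log2 change was 0.443 on day 4, 0.086 on day 0, 0.357 for the day difference and -1.642 for CTCF-K20R day 4 against day 0, which turns the sign for Lefty2 on day 4 and in the day difference and for Lefty1 in the others. On day 0, where neither passed the test, leaving out 1 library put Foxh1 between -0.043 and 0.045 (-0.009 without WT mESC replicate 2) and Furin between -0.2 and 0.132. The causes were not tested. A fit on the libraries of the contrast alone gives no value for the day difference. No residual spread came from WT, and 2 samples per mutant group limit the precision of every value.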
